A study of Homo sapiens with 12 samples.

Results

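H3K4me3 and H3K9ac regions of KBM-7 cells were set against each other, each region being called as carrying both marks, H3K4me3 only or H3K9ac only. Called intervals of a mark that overlapped or touched were joined into regions, and a region carried both marks when it shared at least 1 bp with a region of the other mark. This gave 14803 H3K4me3 regions and 19505 H3K9ac regions, 34308 of the 317369 regions of all marks in the series. KBM-7 is a near-haploid human line derived from a chronic myeloid leukaemia in blast crisis, and it carries the BCR-ABL1 fusion. The study mapped 9 histone modifications by chromatin immunoprecipitation and sequencing, with 1 library per mark and 3 input libraries. All libraries came from the same untreated line. Antibodies to H3K4me3 and H3K9ac came from the same supplier, and by the labels these libraries shared an input with the H3K79me2 library.

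With 1 library for each mark there is no replicate error to judge a difference by, and no p-value was computed. The deposited list held positions alone, so sequencing depth is unknown, and a mark that was not called may still be present below the caller's threshold. Shares are given with Wilson 95% intervals and medians with exact order-statistic 95% intervals, which cover counting error only. All coordinates are GRCh38.

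H3K4me3 is the trimethylated form of lysine 4 of histone H3, laid down mainly by SETD1A, SETD1B and the KMT2 enzymes in complexes that share WDR5, ASH2L and RBBP5. It marks promoters, mostly those rich in CpG dinucleotides, and is bound by readers such as TAF3 of TFIID and the ING proteins. H3K9ac is acetylation of lysine 9, made largely by KAT2A and KAT2B within the SAGA and ATAC complexes, and is found at active promoters and at active enhancers. At promoters held by Polycomb, H3K4me3 can lie together with H3K27me3, an arrangement called bivalent. H3K79me2, made by DOT1L, and H3K36me3, made by SETD2, lie over the bodies of transcribed genes.

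The cell identity was checked against marker genes. Over all 19974 protein-coding genes, 50.1% had both marks within 1 kb of an annotated end, 4.95% H3K9ac only and 43.7% neither. Of 10 blood regulators 7 had both marks within 1 kb of an annotated end (GATA2, RUNX1, LYL1, TAL1, MYB, SPI1 and GFI1B), LMO2 had H3K9ac only, and FLI1 and ERG had neither. ERG changed class when annotated starts were used, and also with a window of 2.5 kb. All 4 pan-leukocyte markers had both marks. None of 5 erythroid markers, 5 granulocyte and monocyte markers or 4 fibroblast markers had either. Of 4 lymphocyte markers 2 had H3K9ac only, and of 4 epithelial markers 1, KRT8, had both. The H3K36me3 and H4K16ac labels held the same 45639 intervals, which are used here as 1 set and called H3K36me3/H4K16ac.

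The promoters of 5 genes are printed to show the sequence under the main kinds of gene end described below. NR4A3, an orphan nuclear receptor, had H3K4me3 only. BCOR, a corepressor that works with BCL6 and Polycomb, had H3K9ac only. LY86, a secreted partner of a toll-like receptor homologue on B cells and myeloid cells, and IRF2BP2, a transcriptional cofactor, had both marks with a large excess of H3K9ac. ETFA, a subunit of the mitochondrial electron transfer flavoprotein, had both with a large excess of H3K4me3. Each sequence is the RefSeq window (GRCh38.p14) from 250 bases before to 50 bases after the annotated start, 5′ to 3′ on the gene's strand, with CG dinucleotides in capitals.
NR4A3: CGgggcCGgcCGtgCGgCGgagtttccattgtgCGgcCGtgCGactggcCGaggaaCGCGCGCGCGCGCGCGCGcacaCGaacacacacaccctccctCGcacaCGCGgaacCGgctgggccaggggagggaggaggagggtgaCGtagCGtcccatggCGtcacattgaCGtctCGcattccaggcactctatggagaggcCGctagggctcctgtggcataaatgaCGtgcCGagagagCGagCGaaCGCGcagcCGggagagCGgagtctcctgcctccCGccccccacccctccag
BCOR: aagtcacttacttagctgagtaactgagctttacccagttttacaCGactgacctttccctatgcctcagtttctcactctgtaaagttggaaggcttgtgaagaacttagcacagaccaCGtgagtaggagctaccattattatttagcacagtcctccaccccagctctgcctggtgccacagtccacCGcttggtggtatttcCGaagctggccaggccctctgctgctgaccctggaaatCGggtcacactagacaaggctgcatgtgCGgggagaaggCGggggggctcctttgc
LY86: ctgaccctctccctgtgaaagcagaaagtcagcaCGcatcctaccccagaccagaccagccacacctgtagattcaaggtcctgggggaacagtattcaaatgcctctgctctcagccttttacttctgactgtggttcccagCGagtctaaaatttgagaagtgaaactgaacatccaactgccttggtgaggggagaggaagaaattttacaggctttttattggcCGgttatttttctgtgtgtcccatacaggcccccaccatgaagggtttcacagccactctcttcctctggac
IRF2BP2: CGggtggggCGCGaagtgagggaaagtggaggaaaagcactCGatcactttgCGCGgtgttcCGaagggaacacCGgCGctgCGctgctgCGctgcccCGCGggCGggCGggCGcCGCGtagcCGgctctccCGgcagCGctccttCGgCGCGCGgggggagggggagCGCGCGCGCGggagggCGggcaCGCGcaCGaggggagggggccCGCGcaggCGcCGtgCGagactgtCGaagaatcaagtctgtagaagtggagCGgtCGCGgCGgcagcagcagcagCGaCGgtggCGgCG
ETFA: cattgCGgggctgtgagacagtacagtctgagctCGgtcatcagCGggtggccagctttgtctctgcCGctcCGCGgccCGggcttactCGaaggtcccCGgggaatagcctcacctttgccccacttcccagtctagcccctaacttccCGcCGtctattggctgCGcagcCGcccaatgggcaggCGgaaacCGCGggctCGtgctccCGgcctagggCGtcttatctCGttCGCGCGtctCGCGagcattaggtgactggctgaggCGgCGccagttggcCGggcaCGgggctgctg

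The NR4A3 window lay at chr9:99821635-99821934 on the plus strand, held 38 CG and was 69.7% G or C. H3K4me3 covered 150 bp of it and H3K9ac 0 bp. The BCOR window at chrX:40177228-40177527, minus strand, held 7 CG at 53.0% G or C, with 273 bp under H3K9ac and 0 bp under H3K4me3. The LY86 window at chr6:6588470-6588769, plus strand, held 3 CG at 49.7% G or C. H3K9ac covered all 300 bp of it and H3K4me3 19 bp. The IRF2BP2 window at chr1:234610129-234610428, minus strand, was also covered by H3K9ac over 300 bp and by H3K4me3 over 72 bp, but held 48 CG at 74.3% G or C. A large H3K9ac excess was thus found both at a CpG-poor and at a CpG-rich promoter. The ETFA window at chr15:76311420-76311719, minus strand, held 29 CG at 66.3% G or C, with 181 bp under H3K4me3 and 300 bp under H3K9ac. Its H3K4me3 excess lay outside the printed window, and ETFA lies in the part of chromosome 15 that KBM-7 holds in 2 copies.

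The overlap was unequal when seen from each mark. Of the H3K4me3 regions 12249 overlapped H3K9ac (82.7%, interval 82.1 to 83.3) and 2554 did not (17.3%). Of the H3K9ac regions 11753 overlapped H3K4me3 (60.3%, interval 59.6 to 60.9) and 7752 did not (39.7%). Shares of sets of unequal size differ in part by construction, since H3K4me3 covered 15.7 Mb and H3K9ac 22.6 Mb. The shared 12.98 Mb made up 82.4% of the H3K4me3 sequence and 57.4% of the H3K9ac sequence. When a region of the other mark within 1 kb was enough, the shares were 87.6% and 71.5%.

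Where the marks met, H3K9ac mostly enclosed H3K4me3. Among 9485 pairs in which 1 region of each mark met only the other, H3K4me3 lay inside H3K9ac in 57.4% and H3K9ac inside H3K4me3 in 15.2%. A further 21.04% were staggered and 6.33% had the same edges. H3K9ac was the wider of the pair in 67.4% and H3K4me3 in 19.5%, with medians of 1350 and 1050 bp and a median difference of 300 bp. Since edges fell on a grid of 150 bp, this difference is 2 steps of the grid. Counting all regions with a partner, 63.2% of the H3K4me3 regions and 21.8% of the H3K9ac regions were covered by the other mark over their whole length. The overlap was as short as 1 grid step, 150 bp, for 236 H3K4me3 and 313 H3K9ac regions.

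Regions without the other mark were narrow. Their median width was 450 bp for both marks (interval 450 to 450), against 1050 bp for H3K4me3 regions with H3K9ac and 1350 bp for H3K9ac regions with H3K4me3. The smallest width in the list, 300 bp, was that of 39.2% of the H3K4me3-only and 30.04% of the H3K9ac-only regions. It was that of 6.51% and 2.71% of the regions with a partner. The share with a partner rose with width, from 44.4% of the H3K4me3 regions of 300 bp to 98.1% of those of 2100 bp or more. For H3K9ac it rose from 12.05% to 98.0%. A wide region has more chance to meet another, so width and class are not independent. At 450 to 600 bp and at 750 to 1050 bp the H3K4me3 shares (68.2% and 92.4%) were above the H3K9ac shares (28.5% and 66.9%), and at 2100 bp or more the intervals of the marks overlapped.

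**Figure D1:**
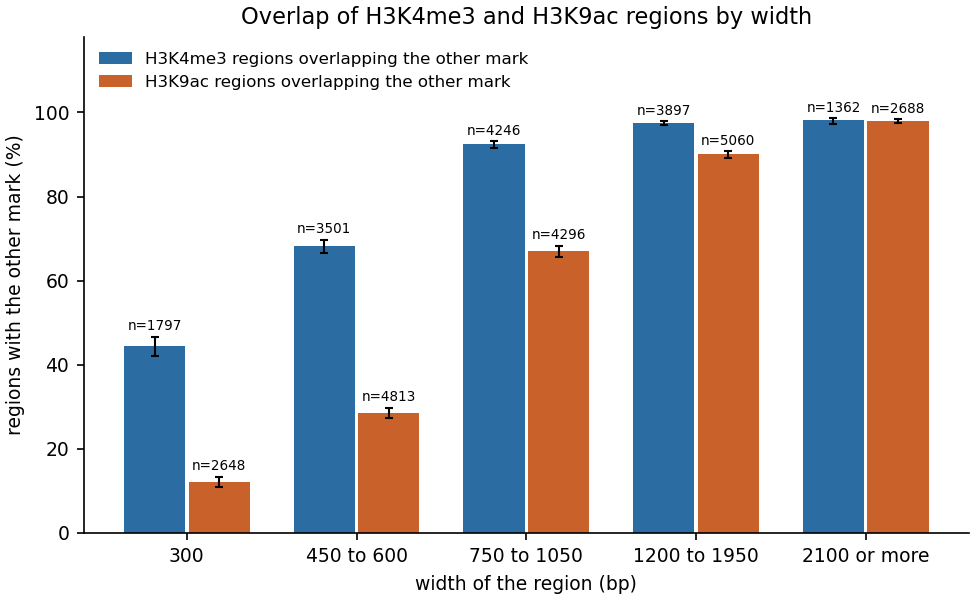
Share of H3K4me3 regions (blue) and H3K9ac regions (orange) that overlap a region of the other mark, in %, by width of the region in bp; bars are shares, error bars Wilson 95% intervals, n the number of regions. The shares start at 44.4% and 12.05% at 300 bp and reach 98.1% and 98.0% at 2100 bp or more.

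Some of the regions called as 1 mark only stood beside the other mark. Of the H3K4me3-only regions 131 touched an H3K9ac region without sharing a base, and 720 (28.2%) lay within 1 kb of one. Of the H3K9ac-only regions 327 touched H3K4me3 and 2185 (28.2%) lay within 1 kb. The median distance to the other mark was 3300 bp from H3K4me3-only and 10725 bp from H3K9ac-only regions.

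The classes lay in different places. At the ends of protein-coding genes, taken as 1 kb on either side of an annotated end, lay 79.2% of the H3K4me3 regions with H3K9ac (interval 78.5 to 79.9) and 80.5% of the H3K9ac regions with H3K4me3. Only 16.4% of the H3K4me3-only regions were there (interval 14.98 to 17.9), while 76.7% lay inside genes away from both ends and 6.89% outside genes. Inside and outside refer here and below to protein-coding genes, so a region outside may lie in a noncoding gene. H3K9ac-only regions were spread more evenly, with 30.1% at gene ends, 41.7% inside genes and 28.3% outside (interval 27.3 to 29.3). Outside genes lay 5.18% of the H3K4me3 and 4.54% of the H3K9ac regions with a partner. The intervals of the 2 kinds of single-mark regions did not overlap at gene ends, inside genes or outside.

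Wide single-mark regions lay in much the same places. The 272 H3K4me3-only regions of at least 900 bp, the median width of their mark, lay inside genes in 82.4% and at gene ends in 14.3%. Of the 1309 H3K9ac-only regions of at least 900 bp, 34.5% lay inside genes, 33.2% at ends and 32.3% outside. When narrow regions were also removed as partners, so that a region whose partner was narrow became a single-mark region, the shares at gene ends were 60.9% for H3K4me3 only and 58.9% for H3K9ac only. KBM-7 is known to hold chromosome 8 and about the 61 to 90 Mb part of chromosome 15 in 2 copies, and 43.4% of the 272 wide H3K4me3-only regions lay there, against 5.95% of all H3K4me3-only regions.

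The other marks also separated the classes. H3K4me2 overlapped 99.4% of the H3K4me3 regions with H3K9ac, 99.5% of the H3K9ac regions with H3K4me3 and 91.7% of the H3K9ac-only regions, but 48.1% of the H3K4me3-only regions (interval 46.1 to 50.02). H3K79me2 overlapped 71.5% of the H3K4me3-only regions, 61.3% and 64.6% of the H3K4me3 and H3K9ac regions with both marks, and 18.7% of the H3K9ac-only regions. H3K36me3/H4K16ac overlapped 38.4%, 5.55%, 6.91% and 4.14% of these classes. In the other direction, H3K4me1 overlapped 15.3% of the H3K4me3-only and 44.6% of the H3K9ac-only regions. H3K27ac overlapped 6 H3K4me3-only regions (0.235%) and 1135 H3K9ac-only regions (14.6%). The H3K27ac set was small, at 3368 regions, which limits how often any class could meet it. H3K27me3 overlapped 9.20% of the H3K4me3-only and 5.29% of the H3K9ac-only regions.

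**Figure D2:**
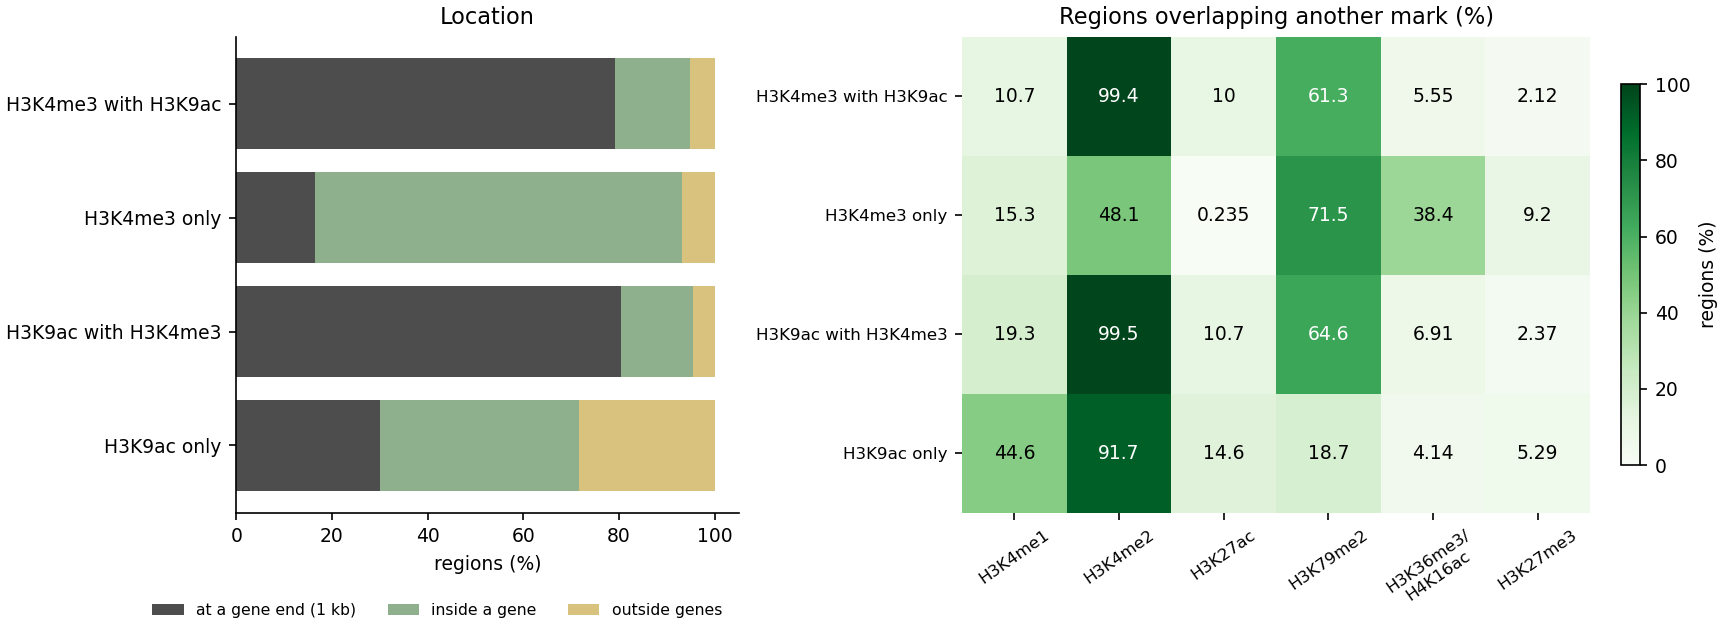
Left, share of each class of regions at the ends (1 kb) of protein-coding genes, inside them and outside them, in %. Right, share of each class that overlaps another mark, in %, by colour and number. H3K4me3-only regions lie mostly inside genes (76.7%) with H3K79me2 (71.5%), and H3K9ac-only regions carry H3K4me1 (44.6%) more often than the other classes.

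Inside genes, H3K4me3-only regions sat under the marks of transcribed bodies. Of these 1960 regions 88.3% overlapped H3K79me2 (interval 86.8 to 89.7) and 87.1% lay wholly under it, while H3K79me2 covered 4.98% of all gene-body sequence. H3K36me3/H4K16ac overlapped 47.4%, with 18.2% of gene-body sequence covered. These are unlike measures: an overlap needed 1 bp of a region, while sequence was counted over all protein-coding genes, those with neither mark included. In H3K9ac-only regions inside genes the overlaps with H3K79me2 and H3K36me3/H4K16ac were 35.3% and 8.17%. In H3K4me3 regions with H3K9ac inside genes they were 65.4% and 5.33%, and in H3K9ac regions with H3K4me3 66.1% and 7.10%. At equal width the single-mark classes still differed: at 300 bp H3K79me2 overlapped 80.9% of 753 H3K4me3-only and 32.9% of 1120 H3K9ac-only regions. At 600 bp it overlapped 94.7% of 377 and 37.4% of 713. The H3K79me2 library shared the input of both marks by the labels, and its part in these overlaps was not tested.

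H3K4me2 divided the H3K4me3-only regions inside genes. The 774 regions with H3K4me2 lay at a median of 3807 bp from the gene's start and 750 bp from the nearest H3K9ac, with H3K4me1 in 40.7% and H3K36me3/H4K16ac in 28.2%. The 1186 regions without H3K4me2 lay deeper, at a median of 10616 bp from the start and 6000 bp from H3K9ac. Of these, 3.71% overlapped H3K4me1 and 60.03% H3K36me3/H4K16ac. Median width was 450 bp in both, and H3K79me2 overlapped 88.2% and 88.4%.

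Most H3K4me3-only regions inside genes lay in genes with both marks at an annotated end. Of the 1637 H3K4me3-only regions inside a single gene of known strand, 87.6% lay in a gene with both marks at an annotated end, and 86.4% were nearer to its start than to its other end. Their median distance from the start was 7386 bp. For 2645 H3K9ac-only regions these values were 69.0%, 65.7% and 16496 bp. For 1640 H3K4me3 regions with H3K9ac they were 57.8%, 78.4% and 7606.5 bp. For 1512 H3K9ac regions with H3K4me3 they were 57.1%, 77.2% and 8271 bp. The median distance was thus much the same in H3K4me3 regions with and without H3K9ac. Of the H3K4me3 regions inside genes, the share without H3K9ac was 27.9% at 1 to 2 kb from the start, 63.5% at 5 to 10 kb and 40.6% beyond 30 kb. Of the H3K9ac regions inside genes, the share without H3K4me3 was 58.4%, 61.1% and 72.5% at the same distances.

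**Figure D3:**
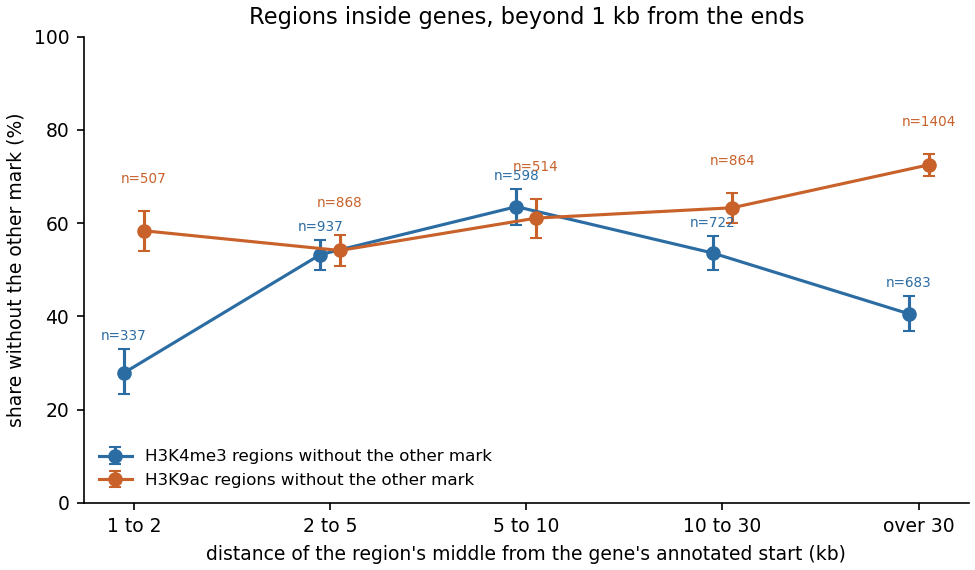
Share of H3K4me3 regions (blue) and H3K9ac regions (orange) inside genes that lack the other mark, in %, by distance of the region's middle from the annotated start in kb; points are shares, error bars Wilson 95% intervals, n the number of regions. The H3K4me3 share is highest at 5 to 10 kb (63.5%) and the H3K9ac share beyond 30 kb (72.5%).

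A few genes held many H3K4me3-only regions. MSN, which encodes the actin linker moesin, held 14 of them. The kinase gene DYRK1A, the ubiquitin ligase gene MSL2 and the kinase gene TAOK3 held 10 each. The transcriptional repressor gene ETV6, the reader gene ZMYND8 and LOC124905135 held 9 each, and ELF1 and YWHAE 8 each. All of these had both marks at an annotated end. This count was made, and its leading genes chosen, with the values in view. The most in 1 gene was 15 for H3K9ac-only regions and 11 for H3K4me3 regions with H3K9ac. Gene length was not taken into account.

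Single-mark regions at gene ends also differed from each other. Of 418 H3K4me3-only regions there, 95.5% overlapped H3K4me2, 26.8% H3K27me3 (interval 22.8 to 31.2), 12.2% H3K79me2 and none H3K27ac, which allows a share of up to 0.718%. Of 2331 H3K9ac-only regions there, 98.2% overlapped H3K4me2, 24.7% H3K4me1, 8.19% H3K27ac, 7.81% H3K79me2 and 7.55% H3K27me3. Of the regions with both marks at gene ends, seen from H3K4me3, 2.04% overlapped H3K27me3 and 61.8% H3K79me2.

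Outside protein-coding genes, the 2191 H3K9ac-only regions carried H3K4me2 in 88.5%, H3K4me1 in 52.1% (interval 50.03 to 54.2) and H3K27ac in 21.6%. These marks are usual at active enhancers, but H3K4me1, H3K4me2 and H3K27ac met without a further mark in 16.4% of the regions. Some of the regions lay in noncoding genes such as CCDC26. H3K79me2 overlapped 5.93% and H3K27me3 6.16%. The 176 H3K4me3-only regions outside genes overlapped H3K4me2 in 31.3% and H3K27me3 in 27.8%, and 29.0% overlapped no other mark, against 6.34% of the H3K9ac-only regions. The 534 H3K9ac regions with H3K4me3 outside genes had H3K27ac as often as the H3K9ac-only ones, 21.7% with an interval of 18.4 to 25.4, but H3K4me1 in 18.5%.

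The widest regions show how the marks spread at single loci. The widest H3K9ac region, 16950 bp at chr7:27154801-27171750, spanned HOXA7, HOXA9 and HOXA10, homeobox genes of blood progenitors, and H3K4me3 covered 49.6% of it. The next, 14250 bp at chr22:46064251-46078500 in LOC124905135 and LINC02939, was covered over 70.5%. A region of 12450 bp over the noncoding RNA gene NEAT1 was covered over 66.3%. One of 11550 bp at EGFL7, which encodes a secreted endothelial factor, was covered over 85.7%, and the widest H3K4me3 region, 9600 bp, lay within it. The fifth, 11250 bp at chr4:116340601-116351850 over the noncoding gene LOC105377384, had H3K4me3 over 1800 bp and lay 731704 bp from the nearest protein-coding gene, TRAM1L1. At CD69, an early activation antigen of leukocytes, an H3K4me3 region of 8700 bp was covered by H3K9ac throughout.

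Among H3K9ac-only regions, 3 of the 5 widest (4950, 4800 and 3900 bp) lay in CCDC26, a noncoding gene on chromosome 8 downstream of MYC. Another of 4650 bp lay inside ABCA9, a lipid transporter gene, and the last of 3750 bp lay near RTL3 on chromosome X. All 5 overlapped H3K4me1, H3K4me2 and H3K27ac. The 5 widest H3K4me3-only regions, 6000 to 3750 bp, lay inside ATAD2, ANP32A, PDE7A, PIAS1 and ZNF395, and all 5 overlapped H3K79me2 and H3K36me3/H4K16ac. Each of these 5 is on chromosome 8 or the 2-copy part of chromosome 15. H3K4me3-only regions there had a median width of 1050 bp against 450 bp elsewhere, and H3K9ac-only regions 900 against 450 bp. The part of copy number in these widths was not tested.

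Of 19974 protein-coding genes, 10015 had both marks within 1 kb of an annotated end (50.1%) and 8732 had neither (43.7%). Another 989 had H3K9ac only (4.95%) and 238 had H3K4me3 only (1.19%). Annotated ends are those of the longest span, so a gene marked at an inner start counts as neither. Of 15812 genes with a known strand, 8292 had both marks at the start, 193 H3K4me3 only and 737 H3K9ac only. At the other end these counts were 568, 31 and 333. Among 8948 genes with no other protein-coding gene within 5 kb, 3521 had both, 129 H3K4me3 only and 385 H3K9ac only. Only regions at or above the median width gave 7134 genes with both marks, 522 with H3K4me3 only and 1881 with H3K9ac only.

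Genes with H3K4me3 only were often under H3K27me3. It was present at the ends of 126 of 238 (52.9%, interval 46.6 to 59.2), against 27.4% of the genes with H3K9ac only, 8.95% of those with both and 59.6% of those with neither. H3K79me2 was at the ends of 5.04%, 11.3%, 69.4% and 1.07% of these classes. H3K27ac was at none of the 238 genes with H3K4me3 only, which allows a share of up to 1.26%. It was at 9.40% of the genes with H3K9ac only and 11.7% of those with both. H3K4me1 was at 18.1%, 41.5% and 32.2%. The order was the same when the other mark had to be absent within 5 kb: 57.0% of 200 remaining genes with H3K4me3 only and 31.4% of 740 with H3K9ac only had H3K27me3. These counts take either end, so H3K27me3 need not lie at the end that carries H3K4me3 or H3K9ac. At annotated starts alone, H3K27me3 was at 44.0% of 193 genes with H3K4me3 only and 18.5% of 737 with H3K9ac only. It was at 4.11% of 8292 with both and 54.6% of 6590 with neither.

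Around starts the marks differed in shape. Genes were used whose start was an annotated end and which had no other protein-coding gene within 5 kb. In 2577 such genes with both marks at the start, both marks were most frequent at +375 bp, where H3K4me3 covered 93.1% and H3K9ac 94.8% of genes. Upstream, H3K9ac covered a mean of 506 bp in 5 kb and H3K4me3 228 bp, and downstream 1397 and 1253 bp. The ratio of downstream to upstream cover was 2.76 for H3K9ac and 5.50 for H3K4me3. H3K79me2 was most frequent farther downstream, at +1125 bp (64.6% of genes).

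Genes with a single mark at the start had that mark at about the same place. In 90 genes with H3K4me3 only, it was most frequent at +225 bp (76.7% of genes), with a mean of 479 bp downstream. In 227 genes with H3K9ac only, it was most frequent at +375 bp (68.7%), with 679 bp downstream. H3K79me2 reached at most 6.67% and 11.9% of these genes. H3K27me3 covered up to 58.9% of the genes with H3K4me3 only and 34.4% of those with H3K9ac only, in both cases at 4875 bp upstream, and it was lower at the start itself.

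**Figure D4:**
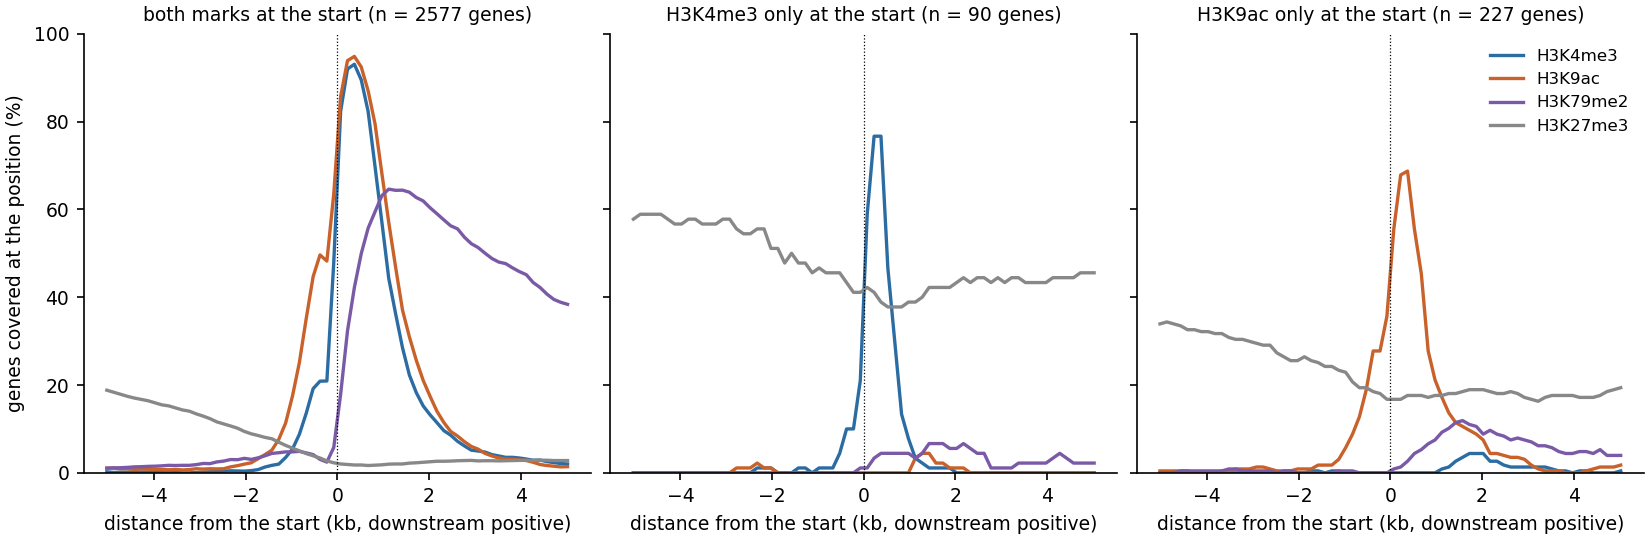
Share of genes covered by each mark, in %, by distance from the annotated start in kb (downstream positive), for isolated genes with both marks (n = 2577), H3K4me3 only (n = 90) and H3K9ac only (n = 227) at the start. H3K4me3 and H3K9ac both peak just downstream, H3K9ac extends farther upstream in genes with both marks, and H3K79me2 reaches at most 11.9% in the other classes.

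Promoter sequence was described over the 15812 RefSeq windows of 300 bases. The median number of CG dinucleotides was 28 with both marks at the start, 27 with H3K4me3 only (interval 24 to 29), 23 with H3K9ac only (interval 22 to 24) and 7 with neither, against 22 over all windows. Windows with under 10 CG made up 4.40%, 7.25%, 21.6% and 56.7% of these classes, and among starts with a single mark 159 of these CpG-poor windows, that of BCOR included, were in the H3K9ac-only class and 14 in the H3K4me3-only class. The letters CCGGAAG, which match the core of ETS-family sites, were found on either strand in 22.6% of the windows with both marks. They were in 9.33% with H3K4me3 only, 10.0% with H3K9ac only, 4.25% with neither and 14.2% of all windows. TATAAA was in 4.50%, 7.77%, 7.46% and 16.4%, and in 9.64% of all. GGGCGG, the core of SP-family sites, was in 75.2%, 70.5%, 66.6% and 36.1%, and in 58.5% of all. CCGGAAG and GGGCGG both contain a CG, so their shares move with CpG content.

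Individual genes with H3K4me3 only, isolated from others, were ranked by H3K4me3 cover within 5 kb of their ends. NR4A3 led with 1800 bp under H3K4me3, 450 bp under H3K9ac beyond 1 kb and 11386 bp under H3K27me3. NR3C2, the mineralocorticoid receptor gene, had 1500 bp under H3K4me3, none under H3K9ac and 9001 bp under H3K27me3. SLC35C1, a GDP-fucose transporter gene, and SMAD1, a transducer of BMP signals, had 1500 bp each but also 1200 and 1350 bp of H3K9ac within 5 kb, and no H3K27me3. Of the others, 5 had 1050 bp of H3K4me3 and 0 bp of H3K9ac. They were AP3B2 and JPH1, known from neurons and muscle, the glycosyltransferase gene B3GLCT, the ubiquitin ligase gene FBXO32 and the Notch target HEY1. H3K27me3 lay within 1 kb of the ends of 7 of the 10. None of the 10 had H3K27ac.

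Isolated genes with H3K9ac only, ranked in the same way, mostly had H3K4me3 at some distance. TSPOAP1 had 6295 bp of H3K9ac and 3445 bp of H3K4me3 within 5 kb. ZSCAN10, a zinc finger gene of pluripotent cells, had 5100 and 1050 bp, with 1950 bp of H3K27ac. SELPLG, the P-selectin ligand gene of leukocytes, had 3957 and 957 bp, with 4557 bp of H3K27ac. The p53 targets BBC3, a killer gene, and CDKN1A, a cell cycle inhibitor gene, had 3900 and 3450 bp of H3K9ac and 2100 and 1650 bp of H3K4me3. VSIG4, TDRD3 and HIVEP1 had 4113, 3900 and 3543 bp of H3K9ac with 1563, 1650 and 2193 bp of H3K4me3.

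Of the 10, BCOR and LMO2 had 0 bp of H3K4me3 within 5 kb. BCOR had 3874 bp of H3K9ac with 9500 bp of H3K27me3. LMO2, a scaffold of the stem cell factor complex with TAL1 and GATA proteins, had 3600 bp of H3K9ac, 3300 bp of H3K27ac, 3676 bp of H3K4me1 and no H3K27me3. The call of H3K9ac only at the other 8 holds for the 1 kb window: with H3K4me3 required to be absent within 5 kb, none of them would be in the class.

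In isolated genes with both marks, H3K9ac covered more than H3K4me3 in 71.5% of 3521 and less in 19.1%, with medians of 1800 and 1350 bp. The largest excess was at LY86, where H3K9ac covered 8400 bp, H3K4me3 750 bp, H3K4me1 13052 bp and H3K27ac 10652 bp. IRF2BP2 had 13632 and 7500 bp, and ZMYND8, a reader of acetylated and methylated histones, 9752 and 3900 bp. LY6E, an interferon-induced surface protein gene, had 7359 and 2100 bp, ANXA2R 5400 and 450 bp, and AHI1, a ciliary gene next to MYB, 5782 and 1050 bp. CSMD3, KAZALD1, LSM4 and LOC124905135 had excesses of 4589, 4350, 3900 and 3757 bp. H3K27ac covered at least 750 bp within 5 kb of every one of the 10 except CSMD3, which had 0 bp.

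Genes with the largest H3K4me3 excess were led by EGLN3, an oxygen-sensing prolyl hydroxylase gene, with 4500 bp of H3K4me3 and 1650 bp of H3K9ac. ETFA had 4800 and 1950 bp. EIF4EBP1, a translation repressor under mTOR, had 5884 and 3450 bp, and AZIN1, which activates polyamine synthesis, 6451 and 4350 bp. The ubiquitin ligase gene ARIH1 had 5780 and 3750 bp. The kinase gene LYN had 4800 and 2850 bp, CLPX 4559 and 2850 bp, and the cohesin gene RAD21 5125 and 3450 bp. Of these 10 genes 8 lay on chromosome 8 or the 2-copy part of chromosome 15, against 2 of 10 with an H3K9ac excess and 4.88% of all protein-coding genes.

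Without these stretches, EGLN3 was followed by ZNF121 with 3000 and 1200 bp and HNRNPD with 6000 and 4350 bp. RNF4, SNRPD1, TKT, SRSF3, NPM1 and DCUN1D5 were also among the first 10. HNRNPD, SNRPD1 and SRSF3 encode RNA-processing proteins and NPM1 the nucleolar protein nucleophosmin. H3K4me3 covered more than H3K9ac in 27.4% of 215 isolated genes with both marks in the 2-copy stretches and in 18.5% of 3306 elsewhere. Covered bp were higher there for both marks, with medians of 2100 and 2700 bp against 1200 and 1650 bp.

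Gene lists were read against the shares of all genes, 50.1% with both marks, 1.19% with H3K4me3 only, 4.95% with H3K9ac only and 43.7% with neither. The genes that write or remove H3K4 methylation had both marks in 20 of 20, with median cover within 5 kb of 2625 bp of H3K4me3 and 3150 bp of H3K9ac. ASH2L had 5850 and 5250 bp, and HCFC1, which joins SETD1 complexes, 3600 and 7350 bp. Among genes of H3K9 acetylation and deacetylation 19 of 20 had both. HDAC3 had 4800 and 3900 bp and EP300 4042 and 3000 bp. The exception was SGF29, the SAGA subunit that reads H3K4 methylation, with 0 bp of H3K4me3 and 1200 bp of H3K9ac. Of 20 genes encoding readers of these marks 19 had both. PHF8, an X-linked demethylase with an H3K4me3-binding finger, had neither within 1 kb but 315 and 1515 bp within 5 kb. PHF8 changed class when annotated starts were used.

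Blood regulators had both marks in 20 of 26, with medians of 2400 and 3525 bp. H3K4me3 covered 6737 bp and H3K9ac 13100 bp at HOXA9. In the same order MEIS1 had 4800 and 7950 bp, ZEB2 5832 and 7932 bp, and BCL11A 7127 and 6827 bp. At HOXA9 the H3K9ac value is the whole of its window, which is shorter than that of a long gene. The same H3K9ac region ran over HOXA7 and HOXA10. MECOM, a stem cell regulator, had H3K4me3 only, with 600 bp, and 10001 bp of H3K27me3. LMO2 and KLF2 had H3K9ac only, KLF2 with 450 bp and with 12860 bp of H3K27me3. ERG, FLI1 and IRF8 had neither at their annotated ends. ERG and BCL11A changed class when annotated starts were used, and ERG also with a window of 2.5 kb. Targets of signalling had both marks in 19 of 22. CISH, a STAT5 target, had 8700 and 11962 bp, PIM1 4950 and 8100 bp, and MYC 6450 and 6150 bp. BCL2L1, which encodes the survival protein BCL-XL, was in the H3K9ac-only class at 1 kb, yet had 2400 bp of H3K4me3 and 2850 bp of H3K9ac within 5 kb.

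Mature lineage genes mostly had neither mark, beside 43.7% of all genes. Of 20 granulocyte and monocyte genes 1, VCAN, had both, and 19 had neither at 1 kb. Within 5 kb CSF3R had 1350 bp of each mark and ELANE 300 bp of H3K4me3 and 900 bp of H3K9ac. CSF3R and FCGR3A changed class with a window of 2.5 kb. Of 22 erythroid and megakaryocytic genes TFRC, the transferrin receptor gene that dividing cells in general use, had both with 3450 and 2250 bp. ANK1 had H3K4me3 only, with 450 bp and 18502 bp of H3K27me3, and 20 had neither at 1 kb. Of these 20, KLF1 had 1950 bp of each mark within 5 kb, GP1BA 900 and 1273 bp, and EPOR 1500 bp of H3K9ac alone. KLF1 and EPOR changed class with a window of 2.5 kb. Among lymphocyte genes 6 of 23 had H3K9ac only, beside 4.95% of all genes. Among them were CD3D, CD8A, CD79A, PAX5 and NKG7. PAX5, the B cell commitment factor, had 0 bp of H3K4me3 and 3450 bp of H3K9ac, without H3K27ac. CD79A had 1950 and 2850 bp and NKG7 881 and 2381 bp within 5 kb, so H3K4me3 lay near both. CD4 and RAG1 had both marks, BCL11B had 300 bp of H3K4me3 only with 20002 bp of H3K27me3, and 14 had neither. CD3D and CD8A are named after their class was seen.

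Replication-dependent histone genes had much more H3K9ac than H3K4me3. Of 25, 16 had both, 5 had H3K9ac only and 4 neither, and median cover was 600 bp of H3K4me3 against 3450 bp of H3K9ac. H3K27ac was at the ends of 20 of 25, beside 1283 of all 19974 genes. H3C4 had 2593 and 7543 bp, H2BC5 3150 and 7500 bp, and H2AC6 2700 and 4350 bp. The 5 with H3K9ac only were H2AC4, H2AC8, H2BC8, H4C2 and H4C3, named after their class was seen. H2BC3, H2BC9, H3C3 and H4C11 had 0 bp of both. These genes are short, clustered and near-identical in sequence, so windows overlap, reads may be split between copies, and the values of single members are uncertain.

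All 24 ribosomal protein genes had both, with medians of 2775 and 3000 bp, and 19 of 20 DNA replication genes had both, with 1875 and 2250 bp. PCNA had 5550 and 6903 bp, and CDT1, the licensing factor gene, 3300 and 6600 bp. MCM4 on chromosome 8 had 5700 and 4350 bp. ORC1, the 1 exception, had 1298 and 998 bp within 5 kb but beyond 1 kb, and changed class when annotated starts were used. Zinc finger genes of chromosome 19 had both in 19 of 28, with medians of 774 and 1050 bp beside 600 and 900 bp over all genes.

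Interferon and antigen presentation genes had both marks in 13 of 22, H3K9ac only in 5, H3K4me3 only in 2 and neither in 2. CIITA, the regulator of class II genes, had 2400 and 4650 bp, and B2M 3000 and 3450 bp. HLA-DRA had 900 bp of H3K4me3 and 0 bp of H3K9ac. HLA-B was called H3K4me3 only at 1 kb but had 300 bp of each within 5 kb. The 5 with H3K9ac only, HLA-C, TAP2, ISG15, IFIT1 and MX1, are named after their class was seen. HLA genes have near-identical copies, and their values are uncertain.

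Most genes of other tissues had neither mark, beside 43.7% of all genes. Of 32 developmental factors 25 had neither and 23 had H3K27me3, beside 6499 of all 19974 genes with H3K27me3. H3K27me3 was also at 17 of 20 neuronal, 13 of 18 germline, 12 of 18 liver, 6 of 10 epithelial and 6 of 10 fibroblast genes. IRX3, FOXC1, WT1 and TBX3 had both, WT1 with 3150 and 2850 bp. GATA6 had 450 bp of H3K4me3 only, with 18502 bp of H3K27me3, and PAX6 had 600 bp of H3K9ac only. Both marks were found at 1 of 20 neuronal, 2 of 18 germline, 4 of 18 liver, 4 of 10 epithelial and 0 of 10 fibroblast genes, beside 50.1% of all genes. The epithelial counts, 4 with both and 6 with neither, are near the shares over all genes. Among them KRT8 and KRT18 overlap and had the same 1500 bp of H3K4me3 and 1200 bp of H3K9ac. KRT8 changed class when annotated starts were used. Of 10 pan-leukocyte genes 9 had both, SPN with 4500 and 5250 bp and PTPRC, the CD45 gene, with 2550 and 3450 bp. CD53 had neither within 1 kb but 1200 and 1350 bp within 5 kb.

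**Figure D5:**
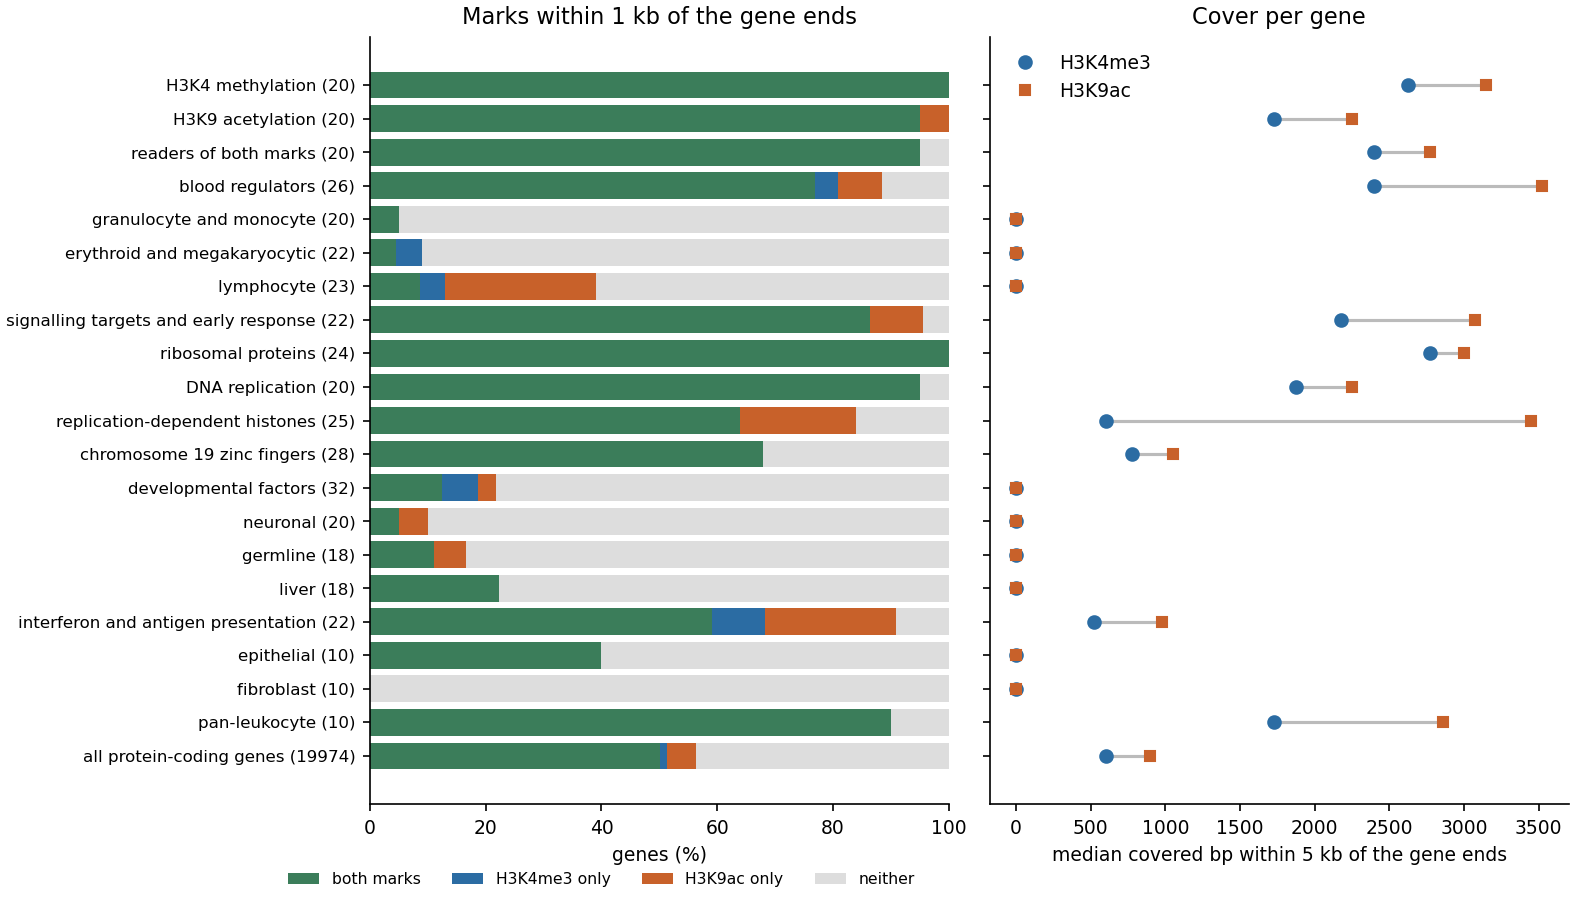
Left, share of the genes of each list with both marks, H3K4me3 only, H3K9ac only or neither within 1 kb of an annotated end, in %, with the number of genes in brackets; right, median bp covered by H3K4me3 (circles) and H3K9ac (squares) within 5 kb of the ends. Histone genes have the widest gap between the marks (600 against 3450 bp), and H3K9ac-only genes make up 6 of 23 in the lymphocyte list.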

How the data were processed

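The deposited values are positions: the authors listed called intervals of every mark in 1 file, naming the mark beside each, with no score or count. Per the submitters' processing notes the build was GRCh38 and the tools included MACS, Bowtie2 and cutadapt. Their versions and thresholds, and which input served each call, are not given in the sources used. Starts counted from 0 or from 1 were brought to 1 convention by the 50 bp grid on which they lie, chromosomes 1 to 22 and X were used, and 249853 intervals under labels that match no sample were left out.

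Intervals of a mark that overlapped or touched were joined. Overlap needed 1 bp. Gene ends came from a RefSeq table of GRCh38.p14 with 19974 protein-coding genes. Strand and start came from the RefSeq promoter table, which matched 15812 of them. Covered bp were counted over windows of 5 kb around both ends together. Since each mark has 1 library, no test was made. Shares have Wilson 95% intervals, and the limit for a count of 0 is 3 counts. Scripts ran in Python 3.11.15 with pandas 2.3.3, numpy 2.4.6 and scipy 1.17.1, and the joining and overlap functions were tested on simulated intervals.

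The regions, gene lists and alternatives were chosen with earlier results of these data known, so a list's direction is not independent evidence. Genes named by rule were the 10 isolated genes of each single-mark class with the most cover and the 10 with the largest excess of each mark. From each list came up to 4 members with the most cover and all members of a class of 4 or fewer, and the 5 widest regions of each region class were added. The text names a selection, and some genes that these rules pick are not reported here. Promoters were taken from the first genes of these rankings, narrowed after their values were seen to windows that hold the class's mark, and none is on chromosome 8. The window of ETFA is in the 2-copy part of chromosome 15. Genes with the most H3K4me3-only regions, the view of single-mark regions by width and the rankings without 2-copy stretches were added after the data were seen.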

Additional observations from a re-analysis of the deposited data

How the results depend on the processing

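No paired analysis was possible because each mark has 1 library. Of the region results, the values that moved beyond their intervals follow, with the gene counts after them. Where no cause is stated, the cause was not tested. The share of H3K4me3 regions with H3K9ac was 80.7% when 50% of the region had to be covered, 87.6% when H3K9ac within 1 kb counted, 85.2% with gaps of up to 1 kb joined and 89.6% among regions at or above the median width. The share of H3K9ac regions with H3K4me3 was 52.6%, 71.5%, 67.9% and 67.9% under these, and 58.2% for intervals as deposited. Median width of H3K9ac-only regions was 600 bp with 50% coverage and 600 bp with gaps joined, which also gave 1200 bp for H3K4me3 and 1800 bp for H3K9ac with the other mark.

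At gene ends, windows of 500 bp gave 74.2% (H3K4me3 with H3K9ac), 14.1% (H3K4me3 only), 76.5% (H3K9ac with H3K4me3) and 23.9% (H3K9ac only). Windows of 2.5 kb gave 84.8%, 28.8%, 85.6% and 42.8%, and regions at or above the median width 85.6%, 60.9%, 86.0% and 58.9%. In this last setting narrow partners are gone too, so regions with a narrow partner join the single-mark classes.

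With the other mark absent within 1 kb, H3K4me3-only regions overlapped H3K4me1 in 10.1%, H3K4me2 in 30.7%, H3K27ac in 0.0545%, H3K36me3/H4K16ac in 45.5% and H3K27me3 in 11.2%. H3K9ac-only regions overlapped H3K4me1 in 50.1%, H3K4me2 in 88.7%, H3K27ac in 17.2%, H3K79me2 in 13.8% and H3K27me3 in 6.57%. In the setting of wide regions just described, H3K4me3 only met H3K4me2 in 82.7%, H3K27ac in 0.6002%, H3K79me2 in 61.6%, H3K36me3/H4K16ac in 22.6% and H3K27me3 in 6.48%. H3K9ac only met H3K4me1 in 34.1%, H3K4me2 in 99.8%, H3K27ac in 21.4%, H3K79me2 in 33.2%, H3K36me3/H4K16ac in 2.79% and H3K27me3 in 2.58%. Of the 272 wide H3K4me3 regions with no H3K9ac partner of any width, 48.2% met H3K4me2, 86.8% H3K79me2, 63.6% H3K36me3/H4K16ac, 29.0% H3K4me1 and 7.72% H3K27me3. Without chromosome 8 and the 2-copy part of chromosome 15, added after the data were seen, H3K36me3/H4K16ac overlapped 36.2% of H3K4me3-only and H3K4me1 42.95% of H3K9ac-only regions.

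Regions with both marks moved as well. With partners within 1 kb counted, H3K4me3 regions met H3K4me1 in 11.6%, H3K4me2 in 99.04% and H3K36me3/H4K16ac in 6.37%, and H3K9ac regions met H3K4me1 in 21.1% and H3K79me2 in 59.3%. Among wide regions, H3K4me3 met H3K4me1 in 14.4%, H3K4me2 in 99.9%, H3K27ac in 11.7%, H3K79me2 in 81.6%, H3K36me3/H4K16ac in 8.26% and H3K27me3 in 1.02%. H3K9ac met them in 23.5%, 99.9%, 13.5%, 83.3%, 9.64% and 1.18%. Without the 2-copy stretches, H3K4me3 met H3K4me1 in 7.56%, H3K36me3/H4K16ac in 4.24% and H3K27me3 in 1.87%, and H3K9ac met them in 16.2%, 5.49% and 2.04%.

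Isolated genes, 8948 in all, numbered 3521 with both marks, 129 with H3K4me3 only and 385 with H3K9ac only. Shares moved too: 39.3% had both marks and 54.9% neither, against 50.1% and 43.7% of all genes. Wide regions gave 7134 genes with both marks (35.7%), 522 with H3K4me3 only and 1881 with H3K9ac only. Over all genes the interval for both marks was 49.4 to 50.8%. Windows of 500 bp gave 9572 (47.9%) with both, 271 with H3K4me3 only and 1096 with H3K9ac only. With 2.5 kb 10475 (52.4%) had both, and at annotated starts 8292 of 15812 (52.4%). With the other mark absent within 5 kb, 200 had H3K4me3 only and 740 H3K9ac only. Of 146 named genes, 18 changed class with windows of 500 bp, 23 with 2.5 kb, 29 with wide regions and 17 with the other mark absent within 5 kb. With annotated starts 12 of 103 changed. Depth is unknown, so a region without a mark cannot be told apart from one where the mark fell below the caller's threshold.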

Other observations

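Genes that do not encode proteins were read in the same way, within 1 kb of an annotated end. Of 443 tRNA genes, which RNA polymerase III transcribes, 137 had both marks (30.9%), 47 had H3K9ac only (10.6%) and 1 had H3K4me3 only. Among 154 snRNA genes H3K9ac only was found at 15 (9.74%) and both marks at 12 (7.79%). Of 18177 lncRNA genes 2479 had both (13.6%), 603 H3K9ac only (3.32%) and 92 H3K4me3 only (0.506%). Many of these genes lie close to a protein-coding end, and the part of such neighbours in the counts was not tested. Of the regions away from all protein-coding ends, 22.6% of the H3K4me3 regions with H3K9ac, 3.42% of the H3K4me3-only and 10.4% of the H3K9ac-only regions lay at an lncRNA end.

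By chromosome, the share of H3K4me3 regions without H3K9ac ran from 12.8% on chromosome 17 (interval 10.7 to 15.1) to 26.98% on chromosome 21 (interval 21.2 to 33.7), where DYRK1A alone held 10 such regions. The share of H3K9ac regions without H3K4me3 ran from 34.8% on chromosome 7 to 45.1% on chromosome 21.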
